A study of Homo sapiens with 4 samples.

Results

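BAF45D peaks were examined at the nuclear genes of the mitochondrial respiratory chain. The cells were H9, a human embryonic stem cell line (ESC), and neural stem cells of spinal cord type derived from it (NSC). Members were the autosomal protein-coding genes whose symbols begin with NDUFA, NDUFB, NDUFC, NDUFS or NDUFV and a number, SDHA to SDHD, UQCR, COX4 to COX8 or ATP5, together with CYC1. This rule, which uses names and no measured value, gave 85 of 19126 autosomal protein-coding genes in RefSeq GRCh38.p14: 35 of complex I, 4 of complex II, 10 of complex III, 16 of complex IV and 20 of complex V. Among them are 2 read-through genes, NDUFC2-KCTD14 and ATP5MF-PTCD1, which contain NDUFC2 and ATP5MF and shared every gene-end peak with them. A further 3 members lie on chromosome X and were left out by the rule.

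The respiratory chain sits in the inner mitochondrial membrane. Complexes I and II feed electrons to ubiquinone, complex III passes them to cytochrome c, complex IV hands them to oxygen, and complex V uses the resulting proton gradient to make ATP. Most subunits are encoded in the nucleus, and NRF1, ETS factors such as GABPA, and YY1 are known regulators of their promoters. BAF45D, the product of DPF2, belongs to BAF, a complex that moves nucleosomes. Pluripotent cells rely heavily on glycolysis, and oxidative metabolism is known to increase as they differentiate.

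The assay was CUT&Tag with a rabbit antibody to BAF45D on 100000 cells per library, in which the antibody brings a transposase to DNA near its target. There were 2 ESC libraries (ESC1, ESC2), from H9, an established line kept in mTeSR1 medium on Matrigel. The 2 NSC libraries (NSC1, NSC2) came from H9 after 10 days in N2B27 with LDN-193189, SB431542, CHIR-99021, FGF2, FGF8 and DAPT, then a medium with SB-431542, CHIR-99021 and the hedgehog agonist Hh-Ag 1.5, and later FGF2 and EGF. The labels record neither genetic changes nor separate cultures, so their spread within a cell type may be technical only. No RNA and no untargeted antibody entered the comparison.

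The deposited data are 1 list of peaks per library, with 4204 and 12533 peaks on chromosomes 1 to 22 and X in ESC1 and ESC2, and 29783 and 24669 in NSC1 and NSC2, from 20734829, 18953543, 5566407 and 5377831 tags. A gene was called in a library when a peak overlapped the 1 kb on either side of its annotated start or end. By this measure 7 of 8 neural stem cell markers were called in each NSC library and 0 in either ESC library. Of 6 pluripotency markers, 3 and 4 were called in ESC1 and ESC2 against 2 in each NSC library. POU5F1 and NANOG had no gene-end peak in any library, and SOX2 and LIN28A were called in all 4. In ESC1, ESC2, NSC1 and NSC2, 0, 2, 2 and 1 of 4 neuron markers and 0, 0, 0 and 1 of 4 glia markers were called. Of all autosomal protein-coding genes 6.8%, 23.2%, 43.5% and 38.7% were called in the same order. Peak strength is the authors' −log10 q against the background of the same library. It was compared across libraries only as a percentile within its own list, where 100 is the strongest peak.

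Respiratory chain genes carried BAF45D peaks more often in NSC than in ESC, as genes in general did. Of the 85 members, ESC1 had 11 called, ESC2 had 30, NSC1 had 60 and NSC2 had 52. Across all autosomal protein-coding genes, the shares called were 6.8%, 23.2%, 43.5% and 38.7% in the same order. The members' shares were 12.9%, 35.3%, 70.6% and 61.2%, which is 1.90, 1.52, 1.62 and 1.58 times those of all genes. Every library thus had a larger share of members than of genes called, by a similar factor in both cell types.

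On average 56.0 ± 5.66 members were called per NSC library and 20.5 ± 13.4 per ESC library (SD, 2 libraries each). The ratio was 2.73, against 2.74 for the percent of all genes. The difference of 35.5 members exceeded the spread within either cell type, and the ESC and NSC counts did not overlap. An exact permutation test of 2 against 2 libraries gave a two-sided p of 0.333, the smallest it can give. When each list was cut to its 4204 strongest peaks, the order was lost: 11, 19, 13 and 9 members were called in ESC1, ESC2, NSC1 and NSC2, where 6.80%, 13.4%, 11.6% and 11.04% of all genes were. The larger number of members called in NSC was thus not seen at equal list length. Among these strongest peaks the members' shares in ESC1, ESC2 and NSC1 were 12.9%, 22.4% and 15.3%, above those of all genes. The NSC2 share of 10.6% stood at the level of all genes.

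At a higher threshold of −log10 q the excess over all genes was smaller in each library. With a −log10 q of at least 5, the members' shares were 3.53%, 22.4%, 48.2% and 37.6%, beside 3.36%, 15.4%, 30.8% and 26.2% of all genes.

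The calls of ESC1 were nested in those of ESC2, while each NSC library had calls that the other lacked. All 11 members called in ESC1 were called in ESC2. Among all genes 1241 were called in both ESC libraries and 59 in ESC1 without ESC2. All 30 members called in ESC2 were called in at least 1 NSC library. Of all genes called in an ESC library 89.2% had an NSC call. Both NSC libraries called 48 members, NSC1 called 12 that NSC2 did not, and NSC2 called 4 that NSC1 did not. For all genes these counts were 6723, 1589 and 670. By class, 10 members were called in all 4 libraries (11.8%, against 6.01% of all genes) and 21 in both NSC libraries and no ESC library, here called NSC-only (24.7%, against 16.4%). No member was ESC-only, where 3 counts of 85, taken as the limit of a count of 0, give a share of up to 3.53%, and 0.251% of all genes were. Another 17 members were called in ESC2 and both NSC libraries (20.0%, against 12.7%), and 21 had no gene-end peak in any library (24.7%, against 50.5%). Of the remaining 16, 11 were called in NSC1 alone (6.73% of all genes were) and 2 in NSC2 alone (2.91%). ATP5PO was called in ESC2 and NSC1 (1.38%), COX6B2 in ESC2 and NSC2 (0.491%) and COX6A1 in ESC1, ESC2 and NSC2 (0.068%). Among the 21 without a gene-end peak, 11 had a peak inside the gene or up to 10 kb away in NSC1. For all genes that share was 64.9%, but it also counts genes with a gene-end peak, so the sets are unlike. The class sizes depended on single libraries: without ESC1 27 members were called in all the remaining libraries, without ESC2 38 were NSC-only, and without NSC2 32 were NSC-only and 1 ESC-only. With a −log10 q of at least 5, 12.9% of members were NSC-only and 3.53% were called in all libraries, close to 11.07% and 3.06% of all genes.

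**Figure D1:**
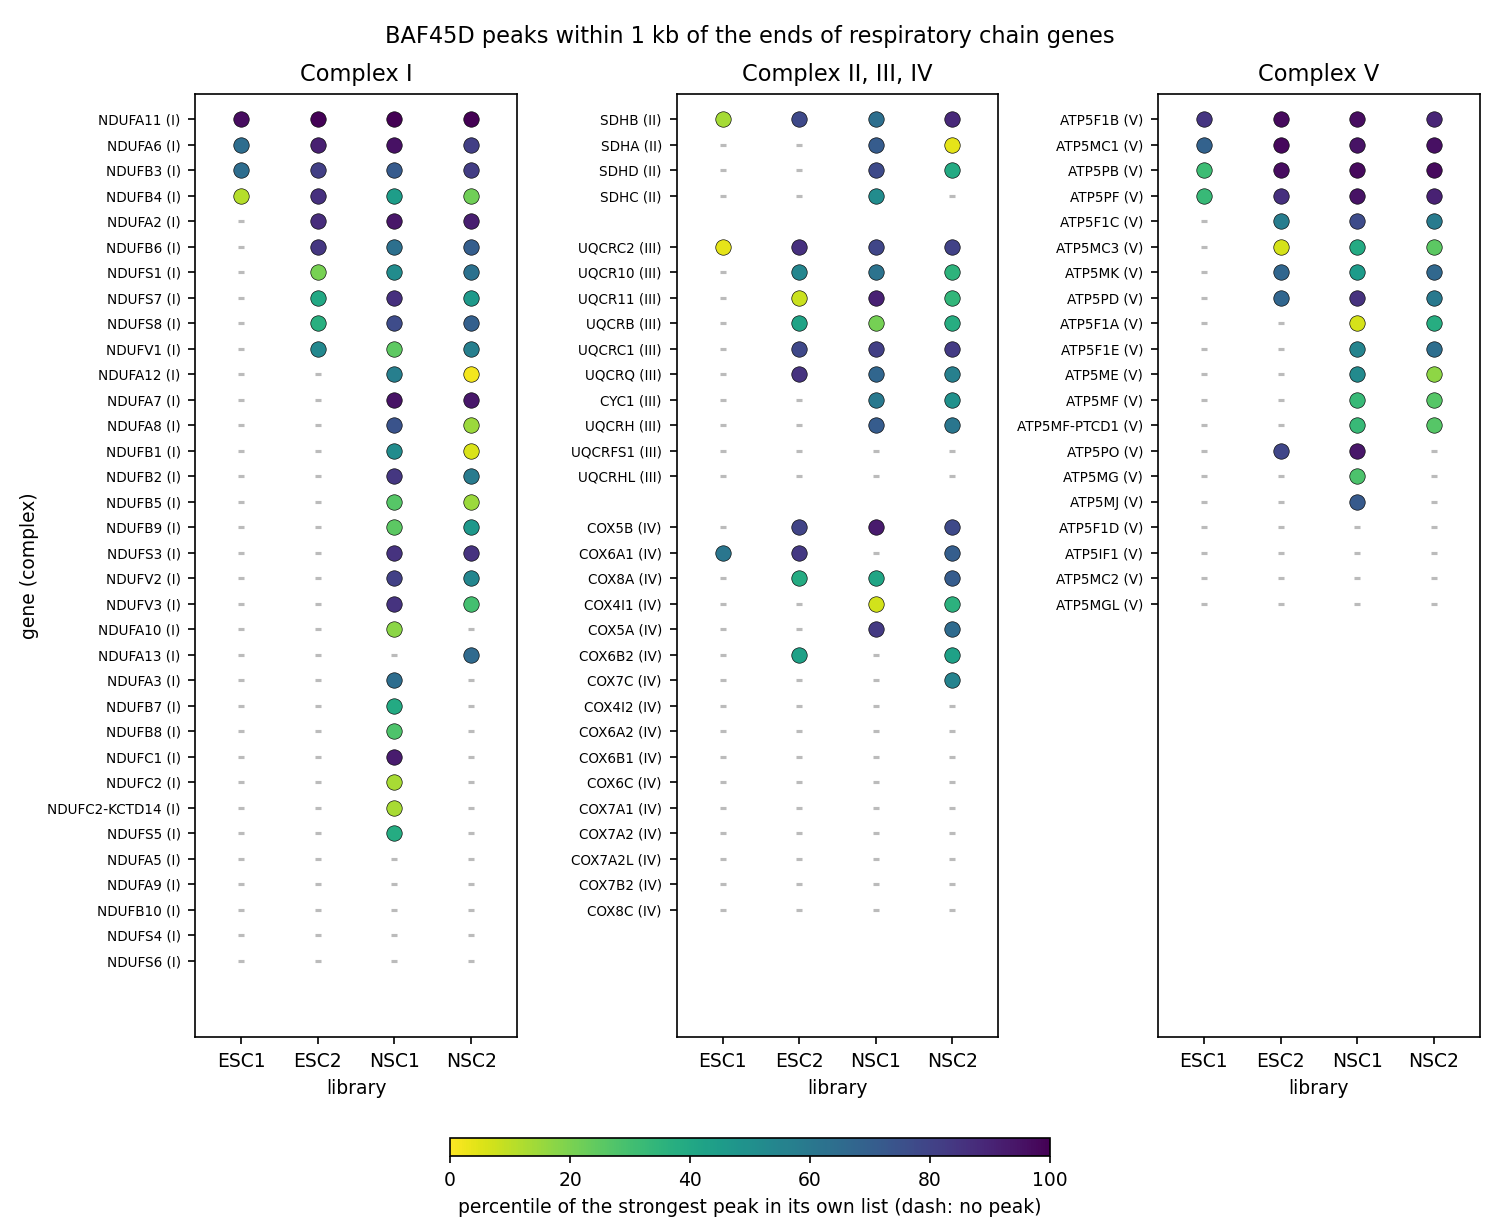
Each row is a member gene with its complex in brackets, and each column is a library; a circle marks a peak within 1 kb of a gene end, coloured by the percentile of its −log10 q in that library's list, and a dash marks no peak; 1 member is not shown. The ESC1 column holds 11 circles and the NSC1 column 60, and most rows of complex IV have dashes throughout.

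The 10 members called in all 4 libraries came from complexes I, II, III and V. The strongest was NDUFA11, an accessory subunit of the membrane arm of complex I, with −log10 q of 36.8, 76.8, 76.7 and 72.6 in ESC1, ESC2, NSC1 and NSC2. These peaks stood at percentiles of 96.7, 99.4, 99.9 and 99.8, so NDUFA11 was near the top of each list. The summits lay 672 to 719 bp upstream of the NDUFA11 start, and on average 396 bp from the start of the neighbouring gene VMAC, which had the same peaks. The site cannot be assigned to either gene from these lists.

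Subunits of complex V made up 4 of the 10. ATP5F1B, the catalytic beta subunit of the F1 part, had a called peak toward each end of the gene in every library. At the end of lower coordinate the summits lay 1262 to 1290 bp away. Those peaks met the 1 kb rule by their edges only. In ESC1, ESC2, NSC1 and NSC2 −log10 q was 9.77, 26.2, 13.5 and 15.1 there and 8.70, 31.7, 26.0 and 10.9 at the other end. Which peak was the stronger thus differed between libraries. ATP5MC1, a gene for the c ring that turns with the proton flow, had 5.51, 37.2, 22.7 and 23.3. ATP5PB, the b subunit of the peripheral stalk, had 2.78, 28.7, 29.9 and 27.4. By percentile ESC1 was the lowest library at ATP5MC1, at ATP5PB and at the end of lower coordinate of ATP5F1B. At the other end of ATP5F1B it stood at 82.1, beside 81.9 in NSC2. ESC2 ranked high at these sites, and ATP5PB stood at percentiles of 31.5 in ESC1 and 96.8 in ESC2. ATP5PF, coupling factor 6 of the same stalk, had 2.84, 12.02, 23.2 and 15.8. Its peak was also the gene-end peak of GABPA, whose annotated interval overlaps that of ATP5PF by 681 bp. GABPA encodes the ETS factor named above as a regulator of respiratory genes.

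The rest of this class belonged to complexes I, II and III. NDUFA6, an accessory subunit of complex I, had −log10 q of 4.96, 16.0, 23.5 and 10.8 in ESC1, ESC2, NSC1 and NSC2, and NDUFB3, of the membrane arm, had 4.96, 9.67, 8.51 and 11.1. SDHB, the iron-sulfur subunit of complex II, had 1.91, 8.42, 7.03 and 14.2. UQCRC2, a core protein of complex III, had 1.57, 12.1, 10.4 and 10.4. In ESC1 SDHB and UQCRC2 were thus near the threshold of their list, at percentiles of 13.4 and 4.19. NDUFB4, another membrane arm subunit, met the rule through different sites: its ESC1 peak (1.81) lay 7211 bp downstream of the start, at the far end of the gene, whereas the summits in ESC2, NSC1 and NSC2 lay within 48 bp of the start. Of the 51 members called in 2 or more libraries, the strongest peaks of all libraries overlapped each other at 45, and at NDUFB4, NDUFB6, ATP5F1B, ATP5MC3, UQCR10 and UQCR11 they did not. Among the 4204 strongest peaks of each list, NDUFA11, ATP5F1B, ATP5MC1, ATP5PB and ATP5PF were called in all 4 libraries. NDUFB3, NDUFB4, UQCRC2 and COX6A1 then had calls in both ESC libraries alone.

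The promoters below show the bases around the starts of selected members. Not all summits fall within them, since those of NDUFA11 and NDUFS3, and those of ATP5MC1 in ESC2 and NSC2, lie farther upstream. The ESC1 summit of ATP5MC1, 37 bp downstream of the start, also lies outside. The sequences come from RefSeq (GRCh38.p14), run 5′ to 3′ on the strand of the gene, and span 170 bases before to 30 bases from the gene start onward. The first 5 are the members of the class with the highest mean percentile that have a promoter entry, NDUFA7 and NDUFS3 are the strongest NSC-only members with one, ATP5MC2 has its peaks at an internal start, and COX6A2, the muscle isoform, has none. Capitals mark matches on either strand to the ETS motif CCGGAAG, the NRF1 motif GCGCATGC, the YY1 motif AANATGGC, the E-box CACGTG and the cyclic AMP response element (CRE) TGACGTCA.
NDUFA11 (chr19:5903761-5903960, minus strand): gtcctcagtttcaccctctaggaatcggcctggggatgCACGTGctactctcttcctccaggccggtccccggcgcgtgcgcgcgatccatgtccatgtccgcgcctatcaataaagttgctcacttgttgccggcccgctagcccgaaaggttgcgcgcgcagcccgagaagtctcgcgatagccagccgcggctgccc
ATP5MC1 (chr17:48892617-48892816, plus strand): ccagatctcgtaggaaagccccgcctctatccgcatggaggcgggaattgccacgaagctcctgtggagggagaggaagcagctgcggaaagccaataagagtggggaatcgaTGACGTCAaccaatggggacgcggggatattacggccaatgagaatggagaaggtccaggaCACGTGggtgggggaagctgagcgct
NDUFA6 (chr22:42090743-42090942, minus strand): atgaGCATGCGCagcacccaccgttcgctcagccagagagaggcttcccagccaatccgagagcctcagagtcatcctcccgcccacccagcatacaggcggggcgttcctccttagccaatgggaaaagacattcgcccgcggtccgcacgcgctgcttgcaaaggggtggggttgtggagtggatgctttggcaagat
ATP5PB (chr1:111449294-111449493, plus strand): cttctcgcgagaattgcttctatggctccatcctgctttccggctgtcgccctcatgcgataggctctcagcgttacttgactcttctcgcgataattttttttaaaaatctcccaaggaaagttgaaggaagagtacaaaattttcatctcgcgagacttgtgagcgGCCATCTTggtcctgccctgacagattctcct
ATP5PF (chr21:25735025-25735224, minus strand): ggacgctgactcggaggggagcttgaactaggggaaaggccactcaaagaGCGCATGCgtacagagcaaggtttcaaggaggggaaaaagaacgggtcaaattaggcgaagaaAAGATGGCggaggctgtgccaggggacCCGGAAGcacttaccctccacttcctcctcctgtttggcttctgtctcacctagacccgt
NDUFA7 (chr19:8321346-8321545, minus strand): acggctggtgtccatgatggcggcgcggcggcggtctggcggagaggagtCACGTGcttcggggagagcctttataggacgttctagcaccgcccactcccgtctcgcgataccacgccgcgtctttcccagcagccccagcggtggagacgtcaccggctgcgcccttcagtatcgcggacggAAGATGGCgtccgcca
NDUFS3 (chr11:47578904-47579103, plus strand): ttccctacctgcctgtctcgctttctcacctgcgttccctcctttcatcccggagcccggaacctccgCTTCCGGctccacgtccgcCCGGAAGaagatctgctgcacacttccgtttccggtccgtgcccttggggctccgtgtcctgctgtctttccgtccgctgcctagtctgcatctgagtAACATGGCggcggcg
ATP5MC2 (chr12:53676054-53676253, minus strand): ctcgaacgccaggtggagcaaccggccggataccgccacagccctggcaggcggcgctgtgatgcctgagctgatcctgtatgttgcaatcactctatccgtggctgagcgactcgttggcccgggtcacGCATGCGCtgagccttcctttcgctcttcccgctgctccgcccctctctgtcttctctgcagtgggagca
COX6A2 (chr16:31428331-31428530, minus strand): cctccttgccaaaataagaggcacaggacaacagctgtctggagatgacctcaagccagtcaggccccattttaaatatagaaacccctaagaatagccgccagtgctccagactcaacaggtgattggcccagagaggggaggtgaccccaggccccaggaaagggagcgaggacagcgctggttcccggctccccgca

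In these windows ATP5PF held an NRF1, a YY1 and an ETS match, beginning 120, 57 and 30 bases before its start, and its NSC1 and NSC2 summits lay 20 and 14 bp after that start. ATP5MC1 held a CRE match 57 bases before the start and an E-box at base 5. NDUFS3 held 2 ETS matches, 102 and 83 bases before the start, and a YY1 match at base 16, while its summits lay 350 and 367 bp upstream in NSC1 and NSC2. A match is a description of the letters, and the lists do not show which protein was bound there.

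Complex I oxidises NADH, and its core consists of subunits conserved from bacteria. Of its 35 nuclear members, 4, 10, 28 and 21 were called in ESC1, ESC2, NSC1 and NSC2, so the NSC shares of 80.0% and 60.0% stood above those of all genes. The 7 core subunits encoded in the nucleus had 0, 4, 6 and 6 calls. Their shares were 0%, 57.1%, 85.7% and 85.7%, beside 6.8%, 23.2%, 43.5% and 38.7% of all genes. NDUFV1, which holds the flavin that takes electrons from NADH, had −log10 q of 4.52 in ESC2, 3.46 in NSC1 and 5.96 in NSC2. NDUFS1 had 2.40, 5.50 and 6.60, NDUFS7 had 3.55, 13.6 and 4.86, and NDUFS8 had 3.30, 9.83 and 7.74 in the same libraries. These 4 genes, which encode iron-sulfur or flavin subunits, had no ESC1 peak at a gene end. NDUFS3 was NSC-only, with 13.1 and 12.4 in NSC1 and NSC2, as was NDUFV2, with 10.98 and 5.54.

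Of the 21 NSC-only members, 10 belonged to complex I. The strongest was NDUFA7, with −log10 q of 22.9 and 18.7 in NSC1 and NSC2, at percentiles of 95.2 and 93.5. The start of NDUFA7 lies 121 bp from that of the ribosomal protein gene RPS28 on the opposite strand, and both genes had the same peak, 60 bp from the RPS28 start. NDUFS3 came next, and NDUFB2, an accessory subunit, had 12.4 and 6.14, with summits 297 and 253 bp downstream of its start. The remaining NSC-only genes of complex I were NDUFV3, NDUFA8, NDUFA12, NDUFB1, NDUFB5 and NDUFB9, where NSC2 values ran from 1.49 at NDUFA12 to 4.91 at NDUFB9. Several of these stood near the NSC2 threshold: NDUFA12, NDUFB1 and NDUFA8 were at percentiles of 1.73, 5.75 and 15.1 in NSC2, against 57.3, 51.7 and 74.3 in NSC1.

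NDUFA2 and NDUFB6 were called in ESC2 and both NSC libraries, with −log10 q of 12.8, 20.6 and 16.6 at NDUFA2 and 10.8, 7.0 and 7.83 at NDUFB6. The NSC2 value of NDUFB6 belongs to a site 694 bp downstream of the start, whereas the ESC2 and NSC1 summits lay 26 and 27 bp upstream, where NSC2 had 4.90. Calls in NSC1 alone were made at NDUFA3, NDUFA10, NDUFB7, NDUFB8, NDUFC1, NDUFS5 and, through the same peak, NDUFC2 and NDUFC2-KCTD14. Except for NDUFC1 (18.9), the highest value was 7.18, at NDUFA3. Its peak lay 1190 bp downstream of the NDUFC1 start and 144 bp from the start of NAA15. NDUFA13 was called in NSC2 alone (7.06). The 6 members of complex I with no gene-end peak included NDUFA5, NDUFA9, NDUFB10, NDUFS4 and NDUFS6. Of these, NDUFA9 also lacked any peak within 10 kb. Of all genes 25.2% lacked any peak within 10 kb, and 50.5% lacked a gene-end peak.

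Complex II, succinate dehydrogenase, is shared with the citrate cycle. Its 4 subunits had 1, 1, 4 and 3 calls in ESC1, ESC2, NSC1 and NSC2. The shares were 25%, 25%, 100% and 75%, beside 6.8%, 23.2%, 43.5% and 38.7% of all genes. Besides SDHB, the flavoprotein gene SDHA (8.35 and 1.8 in NSC1 and NSC2) and the membrane anchor gene SDHD (9.90 and 4.29) were NSC-only. SDHC, the other anchor, was called in NSC1 alone (5.51). NSC2 had the lower value at SDHA and SDHD and no peak at SDHC, and at SDHA its peak stood at a percentile of 4.10.

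Complex III moves electrons from ubiquinol to cytochrome c, and its 10 members had 1, 6, 8 and 8 calls. The shares were 10%, 60%, 80% and 80%, beside 6.8%, 23.2%, 43.5% and 38.7% of all genes. Both NSC libraries called the same 8 genes. UQCRC1, the partner of the core protein UQCRC2, had −log10 q of 8.58, 11.3 and 11.2 in ESC2, NSC1 and NSC2. UQCRQ had 11.5, 7.61 and 5.87, UQCR11 had 1.66, 17.0 and 3.97, UQCR10 had 4.60, 6.71 and 4.04, and UQCRB had 3.68, 3.19 and 4.19. The strongest peaks of UQCR10 and UQCR11 did not overlap in all libraries, so their values do not follow a single site. CYC1, the cytochrome c1 gene, and UQCRH, of the hinge protein, were NSC-only, with 6.42 and 5.20 at CYC1 and 8.36 and 6.40 at UQCRH. No library had a gene-end peak at UQCRFS1, the gene of the Rieske iron-sulfur protein, or at UQCRHL, a copy of UQCRH.

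Complex IV, cytochrome c oxidase, had shares of called members near those of all genes in ESC1, ESC2 and NSC2 and a lower share in NSC1. Of its 16 members, 1, 4, 4 and 7 were called in ESC1, ESC2, NSC1 and NSC2, and 0 in all 4. Its shares were 6.25%, 25%, 25% and 43.8%, beside 6.8%, 23.2%, 43.5% and 38.7% of all genes. The 69 members of the other complexes had 14.5%, 37.7%, 81.2% and 65.2%. A gene-end peak was missing in every library at 9 of its 16 members (56.2%, 95% Wilson interval 33.2 to 76.9), near the 50.5% of all genes, and at 12 of the other 69. The difference between complexes was not tested, since genes are not replicates.

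**Figure D2:**
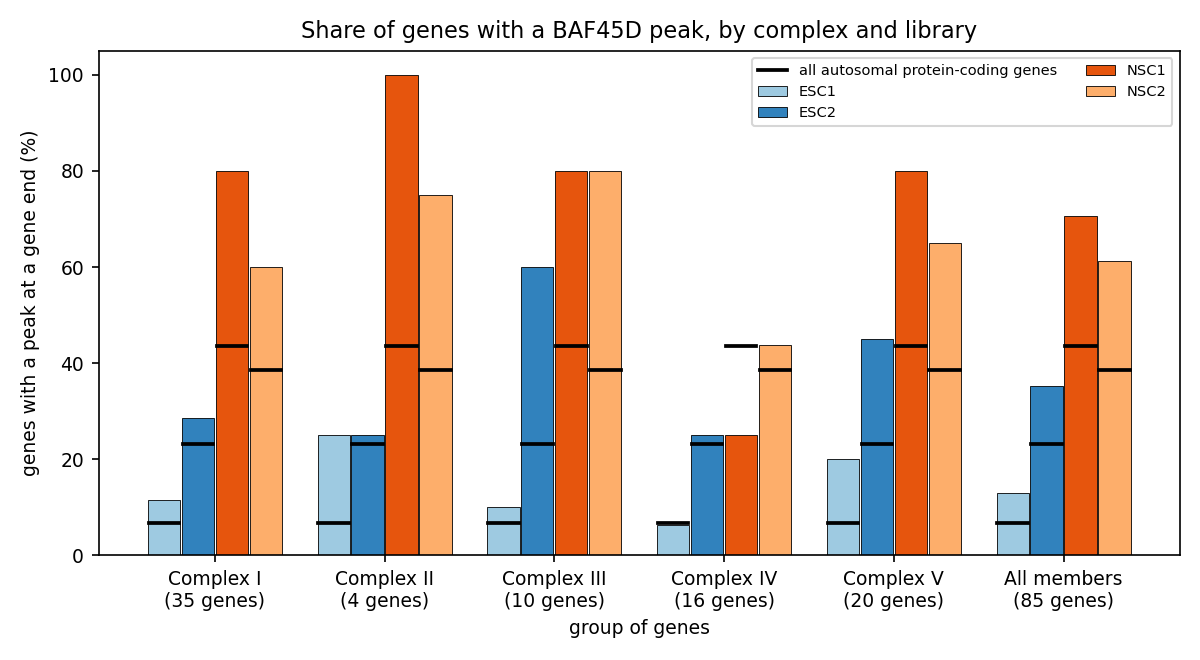
Bars give the percent of member genes with a peak at a gene end, by complex and for all 85 members, in each of the 4 libraries; black lines give the percent of all 19126 autosomal protein-coding genes in the same library. Bars of complexes I, III and V stand above the lines in each library, whereas the NSC1 bar of complex IV, at 25%, is below its line.

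Of the 9 members without a peak, 5 were isoforms with restricted expression. Several subunits of complex IV exist in a widely expressed form and a form used in muscle, testis or lung. COX4I2, COX6A2, COX7A1, COX7B2 and COX8C, from the 6 such isoforms among the members, had no gene-end peak in any library. Of these, COX4I2, COX6A2 and COX8C also had none within 10 kb. COX7A1 had 1 and 2 peaks within 10 kb in ESC1 and ESC2 and none in NSC. The sixth, COX6B2, a testis form, was called in ESC2 (3.77) and NSC2 (4.58) with summits 546 and 612 bp downstream of its start, and GARIN5B had the same peaks.

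The other 10 members of complex IV had 1, 3, 4 and 6 calls in ESC1, ESC2, NSC1 and NSC2. Their shares were 10%, 30%, 40% and 60%, beside 6.8%, 23.2%, 43.5% and 38.7% of all genes. Without the restricted isoforms the NSC1 share was thus near that of all genes, and the NSC2 share was above it. COX5B, which binds zinc, had −log10 q of 9.09, 18.95 and 9.66 in ESC2, NSC1 and NSC2, and COX8A had 3.45, 4.57 and 8.04. COX4I1, the widely expressed form of the regulatory subunit 4, was NSC-only at 2.08 and 4.12, as was COX5A at 11.9 and 6.98. COX6A1 was called in ESC1 (4.61), ESC2 (10.3) and NSC2 (7.90) and not in NSC1, a pattern that 0.068% of all genes had. COX7C was called in NSC2 alone (5.68). COX6B1, COX6C and COX7A2 had no gene-end peak in any library. For subunits 4, 6A and 8 the widely expressed gene was called and its restricted partner was not, whereas for 6B only the testis form was called and for 7A neither COX7A1 nor COX7A2 was.

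The gene-end rule missed strong peaks at COX7A2L and ATP5MC2. COX7A2L takes part in joining complexes III and IV, and ATP5MC2 is another gene of the c ring. The RefSeq promoter entries of these genes place the start 7.74 and 5.34 kb inside the annotated interval. At that start COX7A2L had −log10 q of 2.60, 29.9, 38.7 and 31.1 in ESC1, ESC2, NSC1 and NSC2, with summits 330 to 442 bp upstream. ATP5MC2 had 4.28, 29.9, 17.0 and 14.4 in the same order, with summits 61 to 95 bp upstream. Counted by the start alone, both genes were called in all 4 libraries, and they stood at the 97th percentile of the ESC2 list. By this rule 10 of the 67 members with a promoter entry were called in all 4 libraries (14.9%, against 6.40% of all genes with an entry). Another 16 were NSC-only (23.9%, against 16.8%). The shares called at the start were 16.4%, 43.3%, 76.1% and 68.7% of members, against 7%, 24%, 45.1% and 40.3% of 15101 genes.

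Complex V, the ATP synthase, had 4, 9, 16 and 13 of 20 members called in ESC1, ESC2, NSC1 and NSC2. The shares were 20%, 45%, 80% and 65%, beside 6.8%, 23.2%, 43.5% and 38.7% of all genes. The 4 genes of the peripheral stalk, which holds the catalytic head still, had 2, 4, 4 and 3 calls. Beside ATP5PB and ATP5PF, ATP5PD had −log10 q of 6.20, 13.3 and 6.19 in ESC2, NSC1 and NSC2, and ATP5PO, the link to the head, had 8.82 and 20.7 in ESC2 and NSC1 and no peak in NSC2. Of the 5 F1 genes, ATP5F1C, the rotor shaft, had 4.93, 9.80 and 6.10 in ESC2, NSC1 and NSC2. ATP5F1A, the alpha subunit, was NSC-only at 2.00 and 4.19, as was ATP5F1E at 5.82 and 6.84, and ATP5F1D had no gene-end peak. The alpha and beta subunits, which alternate in the same ring, thus fell in different classes.

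Among the remaining genes of complex V, ATP5MC3 of the c ring had 1.62, 4.39 and 3.39 in ESC2, NSC1 and NSC2, at sites that did not all overlap, and ATP5MK had 6.18, 4.93 and 7.18. ATP5ME was NSC-only at 5.57 and 2.82, as was ATP5MF at 3.96 and 3.47. ATP5MG and ATP5MJ were called in NSC1 alone, at 3.73 and 8.57. No gene-end peak was called at ATP5IF1, whose product inhibits the enzyme when it runs backwards, or at ATP5MGL, a copy of ATP5MG.

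Called members ranked near other called genes within the lists. The median percentile of called members was 60.6, 78.7, 66.1 and 58.8 in ESC1, ESC2, NSC1 and NSC2, against 64.5, 71.6, 68.9 and 66.4 for all called genes. ESC2 was the library where the members' median was the higher. Members ranged widely, from a percentile of 6.28 at ATP5F1A to 99.9 at NDUFA11 in NSC1. The mean of the medians was 62.5 ± 5.13 in NSC and 69.6 ± 12.8 in ESC (SD, 2 libraries each), a difference within the ESC spread (exact permutation test, two-sided p = 0.667), and without ESC2 it changed sign to 1.85.

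**Figure D3:**
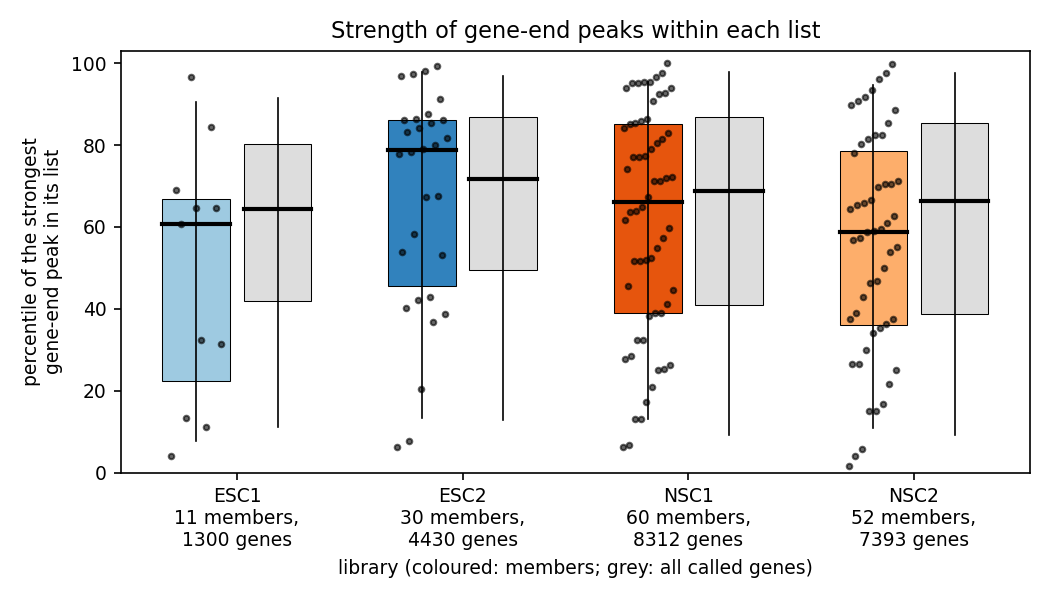
Coloured boxes and points show the percentile of each called member's strongest gene-end peak in the list of its library, and grey boxes show all called genes; boxes span the quartiles, thick lines are medians and thin lines run from the 5th to the 95th percentile of the genes. The medians of members are 60.6, 78.7, 66.1 and 58.8, below the grey medians in ESC1, NSC1 and NSC2 and above in ESC2.

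The peaks sat just upstream of gene starts. Of called members with a promoter entry, the summit of the strongest peak was nearer to the start than to the other end in 9 of 10, 27 of 27, 49 of 49 and 44 of 44 in ESC1, ESC2, NSC1 and NSC2. The exception in ESC1 was NDUFB4. Among all called genes with an entry, 93.8%, 93.1%, 94.6% and 94.8% of summits were nearer to the start. The median summit of members within 1 kb lay at -190.0, -129.0, -93.5 and -66.0 bp from the start, and that of all genes at -148.0, -122.0, -71.0 and -78.0 bp. At ATP5PB the 4 libraries placed the summit within 29 bp of each other, 139 to 168 bp upstream, and at NDUFB3 272 to 286 bp upstream. Summits downstream of the start were found at 1, 3, 5 and 9 members, such as COX5A (46 and 71 bp in NSC1 and NSC2).

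**Figure D4:**
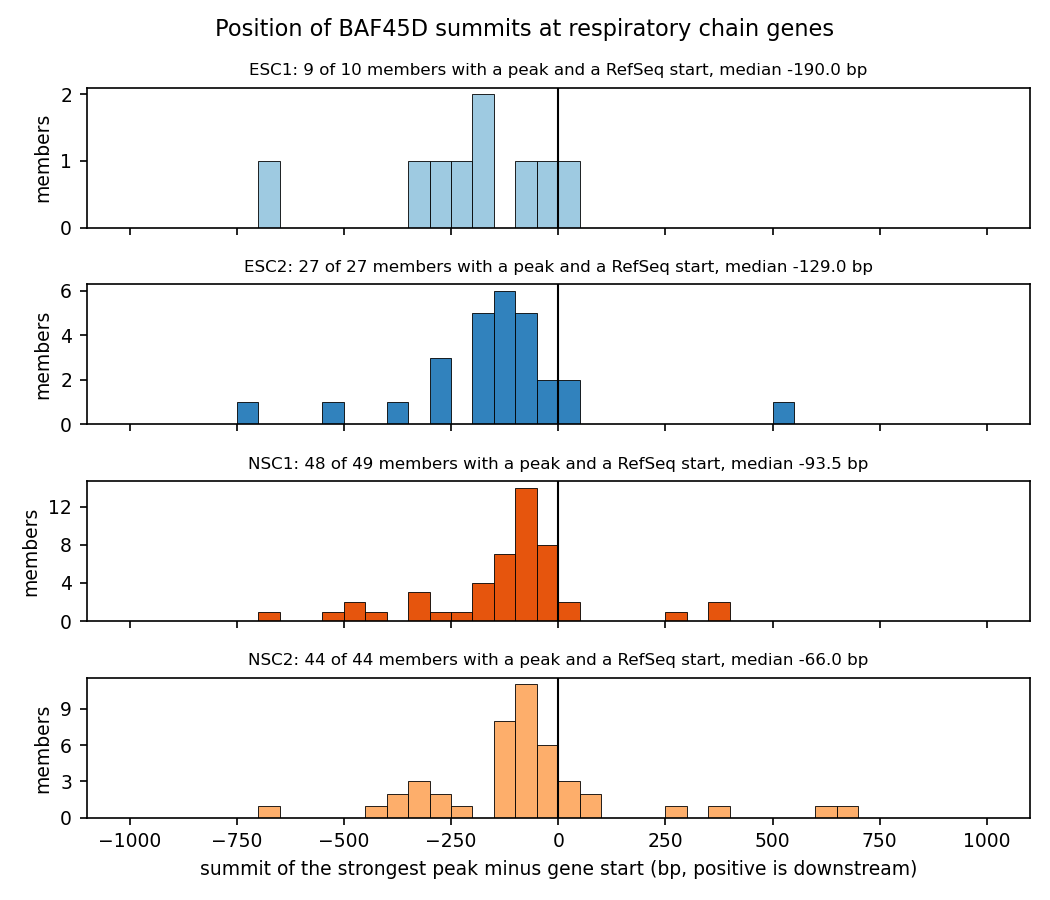
Histograms in bins of 50 bp count members by the distance from the gene start to the summit of the strongest peak, negative upstream, in each library. The medians are -190.0, -129.0, -93.5 and -66.0 bp in ESC1, ESC2, NSC1 and NSC2, and most bars stand left of the start.

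Some of the sites were shared with another gene. Of the 64 members called in any library, 31 had a gene-end peak that was also at an end of another protein-coding gene (48.4%, against 33.2% of the 9467 genes called in any library). For 4 of the 31, NDUFC2, ATP5MF and their read-through genes, the only such gene was the read-through partner. A divergent neighbour, meaning a gene on the other strand that starts within 1 kb upstream and leads away, was found for 17 of the 67 members with a promoter entry (25.4%, against 10.4% of all 15101 genes). These 17 had 1, 6, 15 and 16 calls in ESC1, ESC2, NSC1 and NSC2, and the other 50 had 9, 21, 34 and 28. The shares were thus 5.88%, 35.3%, 88.2% and 94.1% with such a neighbour and 18%, 42%, 68% and 56% without. Members with a divergent neighbour had the higher share in both NSC libraries and the lower share in both ESC libraries, which was not tested. Among all genes the shares were 17.05%, 49.1%, 81.6% and 77.0% with a divergent neighbour and 6.18%, 22.2%, 42.1% and 37.0% without, higher with it in each library. Of the 17, 9 were NSC-only and 1, ATP5PB with WDR77, was called in all 4 libraries. Of all 1578 genes with a divergent neighbour, 447 were NSC-only, 256 were called in all 4 libraries and 218 had no call. NDUFA5, paired with ASB15, was the only member of the 17 with no call.

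Divergent pairs joined members to genes of other functions. They included NDUFS3 with KBTBD4 (104 bp between starts), NDUFS1 with the translation factor gene EEF1B2 (165 bp), NDUFA8 with MORN5 (129 bp), COX4I1 with EMC8 (151 bp), ATP5F1A with HAUS1 (158 bp), SDHA with CCDC127 (167 bp) and UQCRH with LRRC41 (82 bp). NDUFB5 shared its peak with MRPL47, of the mitochondrial ribosome, and SDHD with TIMM8B, of mitochondrial protein import. A call at such a pair says nothing about which of its genes the site belongs to.

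The promoters of members held more matches to the motifs of known respiratory regulators than promoters in general. In the 300 bases around the start (250 before and 50 after), a YY1 match was found in 29.9% of 67 members and 7.92% of 15101 promoters, an NRF1 match in 19.4% and 4.19%, and an ETS match in 28.4% and 14.4%. The SP1 motif GGGCGG (61.2% and 58.9%) and the CCAAT box (34.3% and 35.99%) were about as frequent as elsewhere, as was TATAAA (8.96% and 9.71%). The E-box was found in 10.4% and 8.77%, and the CRE in 7.46% and 2.65%. The longer forms ACCGGAAG, GCGCATGCG and AAGATGGCG, which contain or extend the first set, gave 7.46%, 14.9% and 11.9% of members and 3.10%, 2.80% and 2.79% of promoters.

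Of the 67 members, both NSC libraries called 40, and 27 were not called in both. ETS matches were found in 35.0% and 18.5% of these, NRF1 in 25% and 11.1%, YY1 in 32.5% and 25.9%, and the E-box in 17.5% and 0%. The split follows gene-end calls, so the 27 include COX7A2L and ATP5MC2, which had peaks in both NSC libraries at an internal start. ATP5MC2 is 1 of the 3 members among the 27 with an NRF1 match. Among all genes the same split gave 21.2% and 10.2% for ETS, 6.67% and 2.68% for NRF1, 12.01% and 5.44% for YY1 and 10.1% and 7.97% for the E-box. SDHB held ETS, NRF1, YY1 and CRE matches and was called in all 4 libraries, and NDUFS6 held NRF1 and YY1 matches and had no gene-end peak. The median GC content was 62.5% in members called in both NSC libraries and 58.7% in the other members. For all genes the same split gave 65.0% and 60.7%. The part of GC content in the motif shares was not tested.

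**Figure D5:**
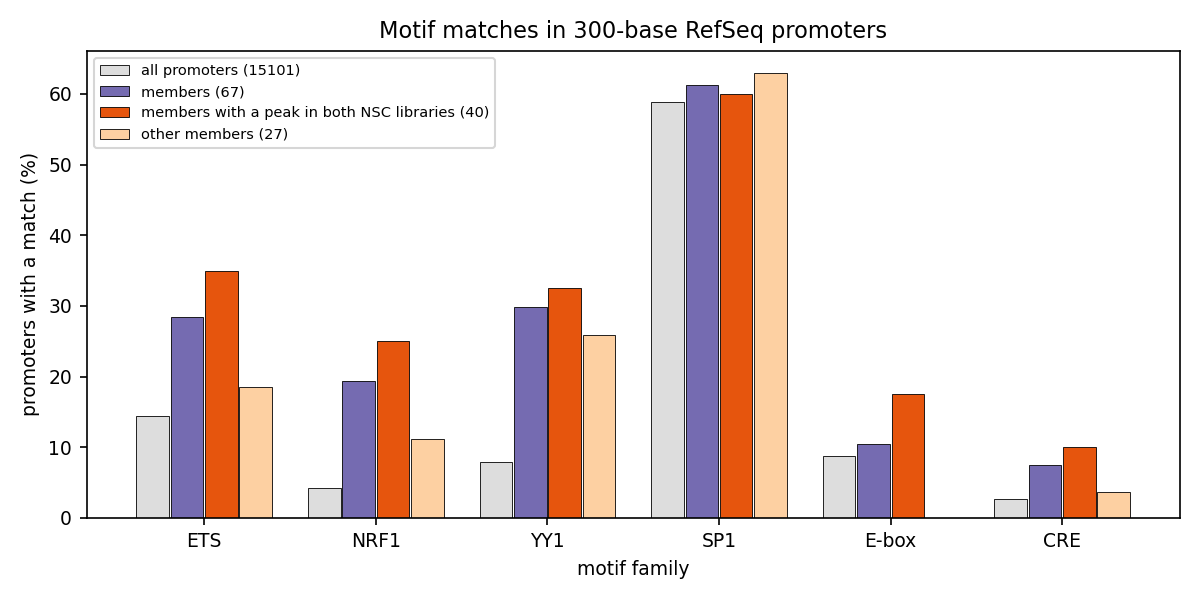
Bars give the percent of 300-base RefSeq promoters with a match on either strand, for all 15101 promoters, all 67 members with an entry, the 40 members with a peak in both NSC libraries and the other 27. The YY1, NRF1 and ETS bars of members, at 29.9%, 19.4% and 28.4%, exceed those of all promoters, and the SP1 bars are alike.

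Other genes of mitochondria and of glycolysis are given by their counts, to be read beside the 6.8%, 23.2%, 43.5% and 38.7% of all genes called in ESC1, ESC2, NSC1 and NSC2, and the 16.4% that were NSC-only. Of 54 assembly factors of the 5 complexes, 4, 19, 37 and 35 were called (7.41%, 35.2%, 68.5% and 64.8%), with 16 NSC-only (29.6%) and 4 in all libraries. The 24 assembly factors of complex IV had 1, 11, 17 and 18 calls, which is 70.8% in NSC1, where 25% of its subunit genes were called; the difference was not tested. Of 77 genes of the mitochondrial ribosome, 10, 30, 55 and 44 were called (13.0%, 39.0%, 71.4% and 57.1%), and of 14 genes for the upkeep and reading of mitochondrial DNA 3, 6, 12 and 9. The 15 genes of electron carriers and ubiquinone synthesis had 3, 9, 14 and 12 calls, among them CYCS, the cytochrome c gene, in all 4 libraries (2.11, 9.26, 16.5 and 14.7). The citrate cycle had 1, 5, 8 and 9 of 13 genes called, and glycolysis, which takes place in the cytosol, 0, 4, 10 and 10 of 16 (0%, 25%, 62.5% and 62.5%), with 6 NSC-only. ESC-only calls were 0 in each of these lists, where 0.251% of all genes had one.

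Genes for regulators of the respiratory chain were called too. Of 12 such genes, 3, 5, 9 and 9 were called, with GABPA, SP1 and ESRRA in all 4 libraries. SP1 had −log10 q of 11.8, 43.5, 39.7 and 43.3 in ESC1, ESC2, NSC1 and NSC2, and ESRRA, an orphan nuclear receptor of energy metabolism, had 3.25, 14.2, 13.97 and 15.8. YY1 was NSC-only at 15.2 and 22.1, and NRF1 was called in NSC2 alone (3.63). TFAM, which packages and transcribes mitochondrial DNA, had 4.05, 11.6 and 6.84 in ESC2, NSC1 and NSC2. COXFA4, formerly NDUFA4 and a subunit of complex IV outside the naming rule, was called in all 4 libraries (4.01, 9.26, 17.3 and 16.7), and its relative COXFA4L2 in none.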

How the data were processed

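BAF45D CUT&Tag was carried out in 2 ESC and 2 NSC libraries, grouped by their titles. The submitters' processing notes name FastQC, Trimmomatic, BWA 0.7.12 and the build hg38. Peaks were called per library with MACS 2.1.0.20150420 without a control, from alignments whose names mark them as unique and deduplicated, at q 0.05 with a shift of -100 and an extension of 200 bp, per the file headers. The authors deposited for each peak the pileup as a signal, the −log10 p and −log10 q, and the fold enrichment, a ratio to the background of that library.

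Entries with the same start and end were joined, keeping the strongest −log10 q. Peaks were matched to RefSeq GRCh38.p14 genes by an overlap of at least 1 bp with the 1 kb around either gene end. Strand and start came from RefSeq promoter entries, held for 67 of 85 members, so 18 members entered no result on starts, motifs or divergent neighbours. Genes without a peak have no count, so absence means that the threshold was not passed. Libraries were compared by exact permutation tests, shares printed with an interval have the 95% Wilson interval, a count of 0 is given the limit of 3 counts, both for counting error only, and lists are described by counts. The caller of gene-end peaks was tested on simulated peaks. Python 3.11.15, pandas 2.3.3 and SciPy 1.17.1 were used.

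Named genes are those called in all libraries, ESC-only or in none, the 3 strongest NSC-only genes of each complex, core subunits and isoform pairs; other members were named after their values were seen. By name, 1 member is not reported here, though it enters the counts. Members, lists and tests were chosen with earlier results of these data known. Alternatives were a −log10 q of at least 5, equal list length, windows of 500 bp and 2.5 kb, summits, gene starts, chromosome X, leaving out each library and a replicate block; leaving out read-through genes and single-exon copies was added after the data were seen.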

Additional observations from a re-analysis of the deposited data

Results flagged for a closer look

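Peaks on mitochondrial DNA, which encodes the remaining subunits of these complexes, lay outside the comparisons: ESC1 and ESC2 had 6 each, NSC1 had 11 and NSC2 had 10 once entries of the same interval were joined. They covered 11147, 11272, 9890 and 9943 bp, and no untargeted library was analysed against which to measure them.

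Of the 3 members on chromosome X, gene-end peaks were called at 1 in each ESC library, 3 in NSC1 and 2 in NSC2. COX7B was called in all 4 libraries (−log10 q of 4.97, 7.37, 8.80 and 5.12), NDUFB11 in both NSC libraries (12.6 and 9.14) and NDUFA1 in NSC1 alone (5.23).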

How the results depend on the processing

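At equal list length the difference in members called between NSC and ESC reversed to -4.0 (exact permutation p = 0.667). There was then 1 NSC-only member (1.18%, against 2.21% of all genes), with 4 ESC-only members and 5 in all libraries (5.88%, against 3.81%). The cut removes more peaks from the longer lists, and its part in the reversal was not tested. At −log10 q of at least 5 there were 11 NSC-only members (12.9%, against 11.07% of all genes) and 3 in all libraries (3.53%, against 3.06%). Over the other alternatives with all 4 libraries, namely both windows, summits, gene starts, chromosome X and the members without read-through genes and single-exon copies, the difference stayed between 28.5 and 37.0 members. Leaving out each library gave differences of 26.0 to 45.0 members, 21 to 38 NSC-only, 0 to 1 ESC-only and 10 to 27 in all remaining libraries. For the difference in median percentile (-7.18), leaving out a library gave -16.2 to 1.85, the last, without ESC2, being a reversal. With the replicate block, which pairs libraries of the same number, the differences were 49 and 22 members, with a mean of 35.5 (exact sign-flip p = 0.5, the smallest that 2 pairs allow). In the labels, same-numbered libraries share only that number. Their calls deviated together with a correlation of -0.00796 over 19126 genes, and their percentiles, set to 0 without a peak, with -0.0456. With 2 libraries per cell type these values cannot show whether same-numbered libraries shared a batch.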
